A study of Dichomitus squalens with 16 samples.

Results

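The transcripts of 4 laccases of the white-rot fungus Dichomitus squalens were followed over 4 plant substrates and 2 sampling days. These 4 belong to 11 genes whose deposited description names laccase, among 11410 genes with reads. They were chosen by their protein numbers, 110823, 169869, 176907 and 62489, with their levels in these libraries known, so that their levels and fold changes are a description and carry no test. No threshold was stated for the choice, but the 4 have the highest group means of the 11. Laccase 62489, the lowest of the 4, reached a mean of 181 RPKM, and laccase 142773, the highest of the other 7, reached 96.9 RPKM, both on aspen on day 9. RPKM is the number of reads of a gene scaled to the length of its model and to the uniquely mapped reads of the library. The authors' description calls 110823 laccase B and the other 3 laccase, and the identity was not checked beyond these descriptions.

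Laccases are multicopper oxidases. They take electrons from phenols at a copper ion near the surface of the protein and pass them to a cluster of copper ions, where oxygen is reduced to water. White-rot fungi secrete most of their laccases, which are known for oxidising the phenolic parts of lignin and small phenols released from plant cell walls. Fungal genomes usually hold several laccase genes beside other multicopper oxidases, such as the Fet3 ferroxidases that oxidise iron during its uptake in the yeast Saccharomyces cerevisiae.

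All libraries came from strain LYAD-421 SS1 without any genetic change named in the labels. After a preculture of 4 days at 28 °C with 6.8 mM glycerol, mycelium was grown in 100 ml of the low-nitrogen medium LN-AS with 1 g of substrate. The wood substrates were sawdust of spruce (Picea abies) and of aspen (Populus tremula), and the non-woody substrates were powders of wheat bran and of cotton seed hulls. Colonised substrate was sampled on day 16 and on day 9, with 2 libraries in each of the 8 groups. The labels do not say that the 2 libraries of a group came from separate cultures, so the spread between them may be technical.

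The 16 libraries held 8448654 ± 242095 uniquely mapped reads (mean ± SD), and the deepest held 1.11 times the reads of the shallowest. Replicates differed most in the day 9 wood groups, where the chi-square per degree of freedom over genes was 28.1 for spruce and 30.7 for aspen, against 1.68 to 11.9 in the other 6 groups. RPKM is scaled to library size alone, whereas the fold changes below come from counts scaled by TMM, which is centred on the bulk of the genes. With library size alone the median log2 fold change of all tested genes for wood against non-woody substrates moved to 0.51 on day 16 and 0.31 on day 9, against 0.03 with TMM on both days. Of 9 housekeeping genes, 1 was called higher and 5 lower on wood on day 16 (median log2 fold change -0.25), and 7 higher and 2 lower on day 9 (median 0.57). Of all genes tested, 29.7% were called higher and 30.0% lower on wood on day 16, and 37.4% higher and 34.1% lower on day 9.

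Laccase B, 110823, was the most abundant laccase on wood. On day 16 it had 174 and 164 RPKM in the spruce libraries, 612 and 836 RPKM in the aspen libraries, 7.12 and 8.27 RPKM with wheat bran and 6.14 and 6.16 RPKM with cotton seed hulls. It had, on day 9, 2498 and 1114 RPKM in the spruce libraries, 2366 and 1531 RPKM in the aspen libraries, 10.2 and 9.58 RPKM with wheat bran and 5.81 and 5.83 RPKM with cotton seed hulls. All 8 wood libraries lay above all 8 non-woody libraries, and on each wood the day 16 libraries lay below the day 9 libraries. Its mean on day 9 was 1806 ± 979 RPKM on spruce and 1949 ± 591 RPKM on aspen (SD, n = 2 each), and the libraries of these 2 groups overlapped. With these means it ranked as gene 39 on spruce and gene 40 on aspen among all genes. The counts behind its values were 85 to 37285 reads per library.

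Laccase 169869 was high on wood on day 9 and much less so on day 16. On day 16 it had 34.4 and 38.1 RPKM in the spruce libraries, 58.7 and 49.1 RPKM in the aspen libraries, 5.09 and 3.43 RPKM with wheat bran and 4.74 and 5.02 RPKM with cotton seed hulls. It had, on day 9, 807 and 436 RPKM in the spruce libraries, 1175 and 502 RPKM in the aspen libraries, 4.41 and 4.32 RPKM with wheat bran and 3.54 and 2.96 RPKM with cotton seed hulls. The 8 wood libraries again lay above the 8 non-woody libraries, and on each wood the day 16 libraries lay below the day 9 libraries. Its mean on day 9 was 622 ± 262 RPKM on spruce and 839 ± 476 RPKM on aspen (SD, n = 2 each), with overlapping libraries. On the non-woody substrates all 8 libraries lay between 2.96 and 5.09 RPKM, from 39 to 69 reads.

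Laccase 176907 had spruce and aspen levels that stood apart on both days. On day 16 it had 50.7 and 74.1 RPKM in the spruce libraries, 246 and 223 RPKM in the aspen libraries, 5.60 and 5.66 RPKM with wheat bran and 6.11 and 5.94 RPKM with cotton seed hulls. It had, on day 9, 259 and 269 RPKM in the spruce libraries, 1108 and 1345 RPKM in the aspen libraries, 6.81 and 5.99 RPKM with wheat bran and 5.26 and 4.68 RPKM with cotton seed hulls. Both spruce libraries lay below both aspen libraries on each day, and aspen on day 16 lay just below spruce on day 9. Its mean on day 9 was 264 ± 7.24 RPKM on spruce and 1226 ± 167 RPKM on aspen (SD, n = 2 each). Reads covered 75.4% to 82.8% of its gene model, which is 2407 bases long, in the day 9 wood libraries. Coverage of the 1731-base model of laccase B in the same libraries was 99.8% to 99.9%, so that part of the 176907 model had no reads at counts of 5379 to 27392.

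Laccase 62489 was the least abundant of the 4 and had its higher levels on aspen. On day 16 it had 3.16 and 4.62 RPKM in the spruce libraries, 45.1 and 17.1 RPKM in the aspen libraries, 3.13 and 2.26 RPKM with wheat bran and 1.76 and 1.82 RPKM with cotton seed hulls. It had, on day 9, 13.1 and 3.38 RPKM in the spruce libraries, 261 and 101 RPKM in the aspen libraries, 1.08 and 1.26 RPKM with wheat bran and 1.02 and 0.384 RPKM with cotton seed hulls. The 4 aspen libraries lay above all 12 others, and the spruce libraries of the 2 days overlapped. On day 16 the lower spruce library had 40 reads and the higher wheat bran library 42, so that their RPKM of 3.16 and 3.13 cannot be told apart. The lowest value, on cotton seed hulls on day 9, came from 5 reads.

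**Figure D1:**
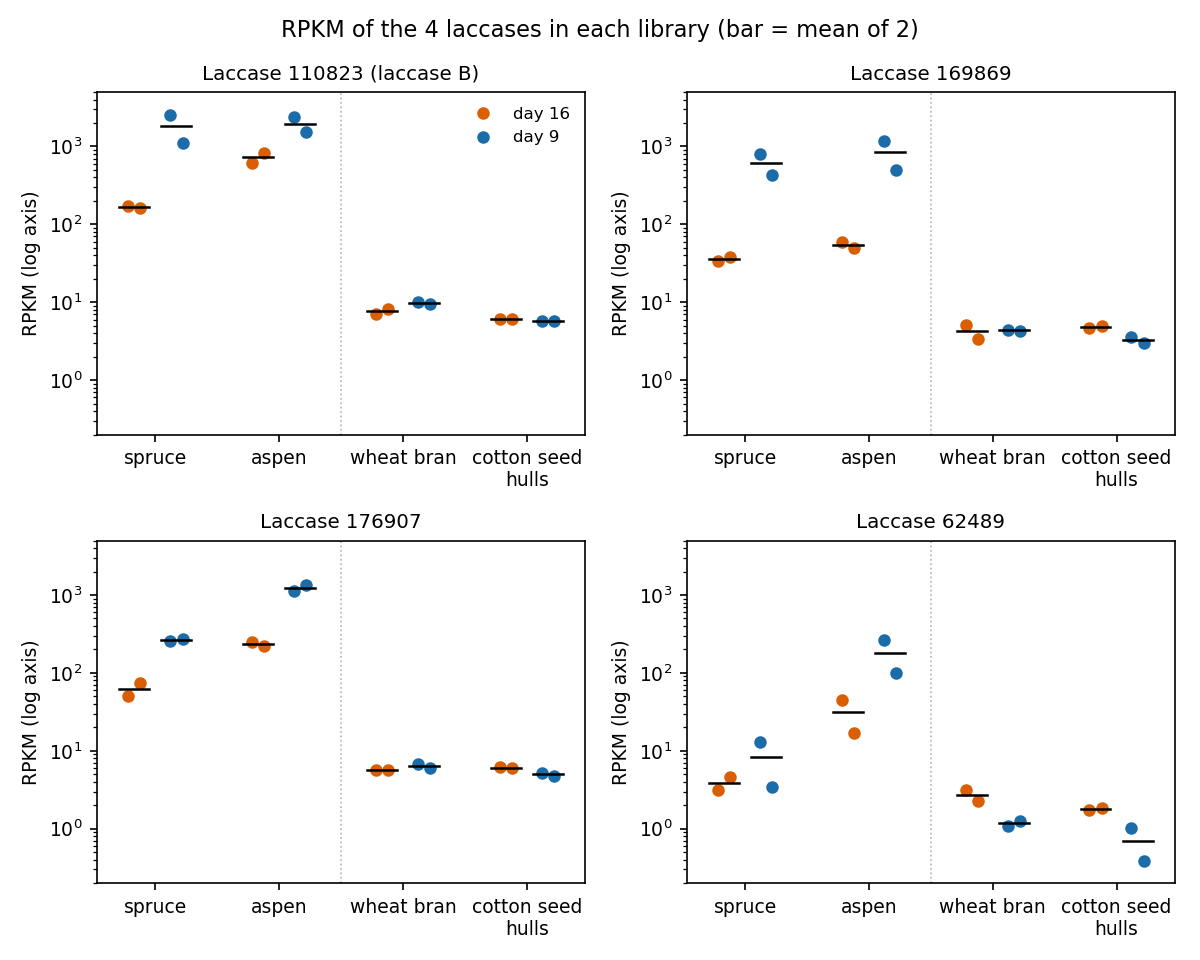
RPKM (log axis) of laccases 110823, 169869, 176907 and 62489 in each of 16 libraries; points are libraries, black bars the mean of 2, orange day 16 and blue day 9. The 3 laccases 110823, 169869 and 176907 sit between 34.4 and 2498 RPKM on wood and between 2.96 and 10.2 RPKM on wheat bran and cotton seed hulls, and 62489 is high on aspen.

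The first comparison was wood (spruce and aspen) against non-woody substrates (wheat bran and cotton seed hulls). On day 16 the fitted log2 fold change was 5.19 ± 0.29 for laccase B (SE), 3.89 ± 0.12 for 176907, 2.79 ± 0.34 for 169869 and 1.83 ± 0.69 for 62489. On day 9 it was 7.67 ± 0.32 for laccase B, 7.29 ± 0.37 for 169869, 6.38 ± 0.13 for 176907 and 5.11 ± 0.71 for 62489. By RPKM the 4 wood libraries of each day lay above the 4 non-woody libraries for all 4 laccases. The same held for 40.7% of all genes on day 16 and 34.2% on day 9, and since the laccases were chosen with these levels known, their count is a description. With TMM scaling the libraries of 62489 overlapped on day 16, at 2.64 TMM-scaled CPM per kilobase in the lowest wood library and 3.19 in the highest non-woody library. The samples are bulk RNA, so that more hyphae with a transcript and more transcript per hypha cannot be told apart.

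The distance between spruce and aspen differed from laccase to laccase. For 176907 the log2 fold change of spruce against aspen was -2.00 ± 0.15 (SE) on day 16 and -2.43 ± 0.15 on day 9. For 62489 it was -3.08 ± 0.76 on day 16 and -4.65 ± 0.69 on day 9. The libraries of spruce and aspen did not overlap on either day for these 2 genes. For laccase B it was -2.19 ± 0.34 on day 16, without overlap, and -0.32 ± 0.32 on day 9, with overlap. For 169869 it was -0.66 ± 0.39 on day 16 and -0.63 ± 0.36 on day 9, with overlap on day 9. The sign on day 9 turned to 0.15 for laccase B without the second spruce library of day 9, and to 0.04 for 169869 without the first aspen library of day 9. Among all genes tested, 23.5% passed the edgeR test (adjusted p under 0.05, two-sided) between spruce and aspen on day 16 and 21.4% on day 9. The share of all genes without overlap between spruce and aspen libraries was not counted.

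Day 16 was set against day 9 on each substrate, and the distance between the days on wood differed from laccase to laccase. On spruce the log2 fold change of day 16 against day 9 was -4.11 ± 0.42 (SE) for 169869, -3.43 ± 0.35 for laccase B, -2.10 ± 0.15 for 176907 and -1.10 ± 0.86 for 62489. On aspen it was -4.08 ± 0.41 for 169869, -2.66 ± 0.60 for 62489, -2.53 ± 0.15 for 176907 and -1.56 ± 0.33 for laccase B. Laccase 169869 thus had the lowest ratio of day 16 to day 9 on both woods, and laccase B a lower ratio on spruce than on aspen. The value of 62489 on spruce rests on its first day 9 library and was 0.18 without it. Of all genes tested, 50.6% passed the edgeR test between day 16 and day 9 on spruce and 63.6% on aspen, and the share was 17.3% with wheat bran and 28.4% with cotton seed hulls.

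On the non-woody substrates the 4 laccases had log2 fold changes of day 16 against day 9 of -0.35 ± 0.43 to 1.21 ± 1.27 (SE) on wheat bran and 0.33 ± 0.47 to 1.57 ± 1.54 on cotton seed hulls. The share of all genes without overlap between the days on cotton seed hulls was not counted. For the 4 laccases the libraries of the 2 days did not overlap there, also where the value was within its SE. For 176907 it was 0.53 ± 0.19 there, and 0.28 with library size alone, against a median of -0.22 for all genes under that scaling. Wheat bran against cotton seed hulls gave -0.67 ± 0.60 to 0.12 ± 1.18 on day 16 and 0.13 ± 0.19 to 0.53 ± 0.44 on day 9. Within this range 176907 had -0.57 ± 0.19 on day 16, without overlap. With library size alone its value was -0.10, against a median of 0.48 for all genes. On day 16 the direction for laccase B turned with the scaling, -0.15 ± 0.45 with TMM and 0.32 with library size alone. Between wheat bran and cotton seed hulls 31.4% of all genes tested passed on day 16 and 33.8% on day 9.

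**Figure D2:**
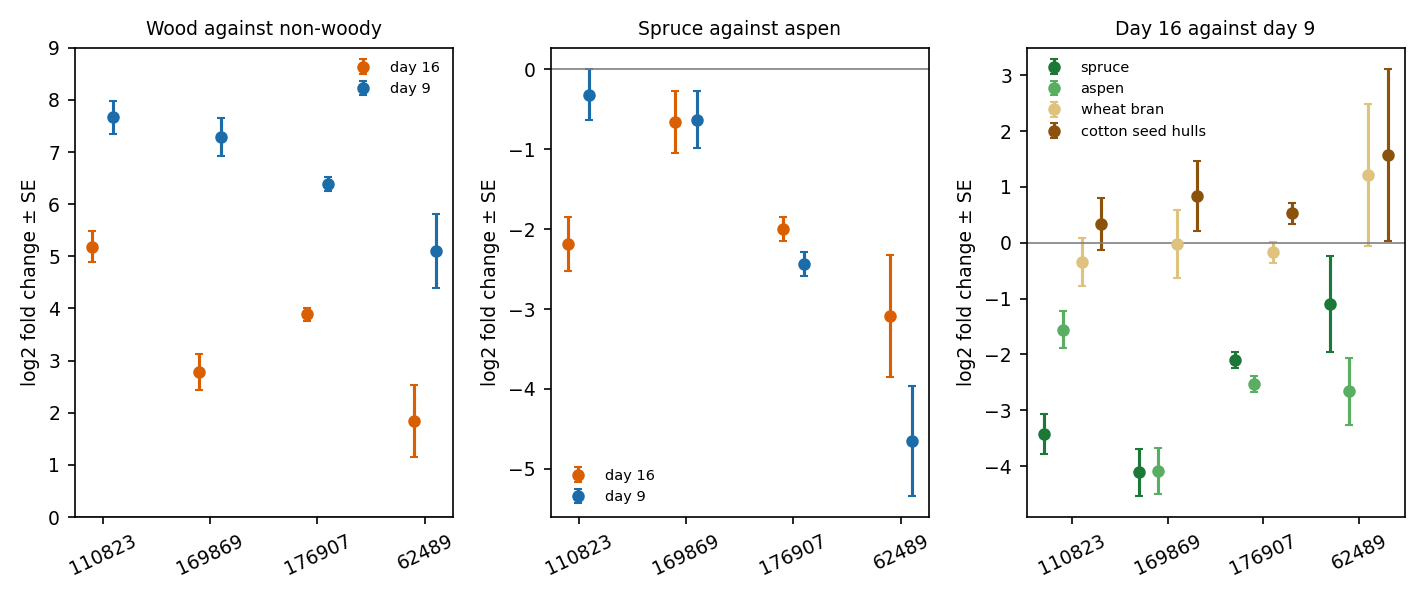
Log2 fold changes (vertical axis) of the 4 laccases (horizontal axis, by protein number) for wood against non-woody substrates, spruce against aspen, and day 16 against day 9 on each substrate; points are edgeR estimates and bars their standard errors. Wood against non-woody is above 0 for all 4, spruce against aspen runs from -4.65 for 62489 to -0.32 for laccase B, and day 16 against day 9 is below 0 on both woods.

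By RPKM the 4 laccases had their highest group mean on aspen on day 9 and their lowest on cotton seed hulls on day 9. The ratio of the highest to the lowest group mean was 335 for laccase B, 258 for 169869, 257 for 62489 and 247 for 176907. Between these ends the order of the groups differed. For laccase B and 169869 the order was aspen on day 9, spruce on day 9, aspen on day 16 and spruce on day 16, with overlapping libraries in the first pair only, followed by the 4 non-woody groups. For 176907 the order of these 4 wood groups was the same without any overlap. For 62489 both aspen groups came first, then spruce on day 9 and spruce on day 16, which overlapped. Among the non-woody groups, neighbours in the order overlapped for wheat bran on day 9 and cotton seed hulls on day 16 in 176907, and for wheat bran on day 9, wheat bran on day 16 and cotton seed hulls on day 9 in 169869. TMM scaling kept all 8 places for 62489 and 169869, 6 for laccase B and 4 for 176907, and the places that changed were those of non-woody groups. The lowest group of 176907 changed with it, to wheat bran on day 16. That group had 5.71 TMM-scaled CPM per kilobase, against 5.87 with cotton seed hulls on day 9.

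The laccase pool on wood consisted mostly of these 4 genes. The summed RPKM of the 11 laccase genes on day 16 was 368 ± 22.4 for spruce, 1182 ± 119 for aspen, 106 ± 2.61 for wheat bran and 71.4 ± 2.56 for cotton seed hulls (SD, n = 2 each). The day 9 sums were 2908 ± 1296 for spruce, 4438 ± 1054 for aspen, 105 ± 0.540 for wheat bran and 74.2 ± 2.94 for cotton seed hulls. Of these sums the 4 laccases held, on day 16, 73.8% ± 0.828 for spruce, 88.2% ± 0.989 for aspen, 19.2% ± 1.36 for wheat bran and 26.4% ± 0.761 for cotton seed hulls. On day 9 they held 92.5% ± 1.45 for spruce, 94.5% ± 0.384 for aspen, 20.7% ± 0.766 for wheat bran and 19.9% ± 0.911 for cotton seed hulls. Since the 4 were chosen with their levels on wood known, the high shares there follow from the choice and are given to show the make-up of the pool. On day 9 the 4 genes took 0.475% ± 0.210 of all reads on spruce and 0.792% ± 0.154 on aspen.

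The mean share of laccase B in the pool was lower on spruce than on aspen on day 16 and higher on day 9. On day 9 laccase B held 60.6% ± 6.65 on spruce and 43.6% ± 2.97 on aspen (SD, n = 2 each), and 176907 held 10.1% ± 4.77 on spruce and 28.9% ± 10.6 on aspen. On day 16 laccase B held 46.1% ± 4.62 on spruce and 60.9% ± 7.30 on aspen, while 176907 held 16.8% ± 3.47 and 20.0% ± 3.33 on the same woods, a difference within the SD. With 2 libraries a group these shares were not tested. Laccase 169869 held 9.83% ± 0.110 on spruce and 4.61% ± 1.03 on aspen on day 16, and 21.5% ± 0.557 on spruce and 18.1% ± 6.41 on aspen on day 9.

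**Figure D3:**
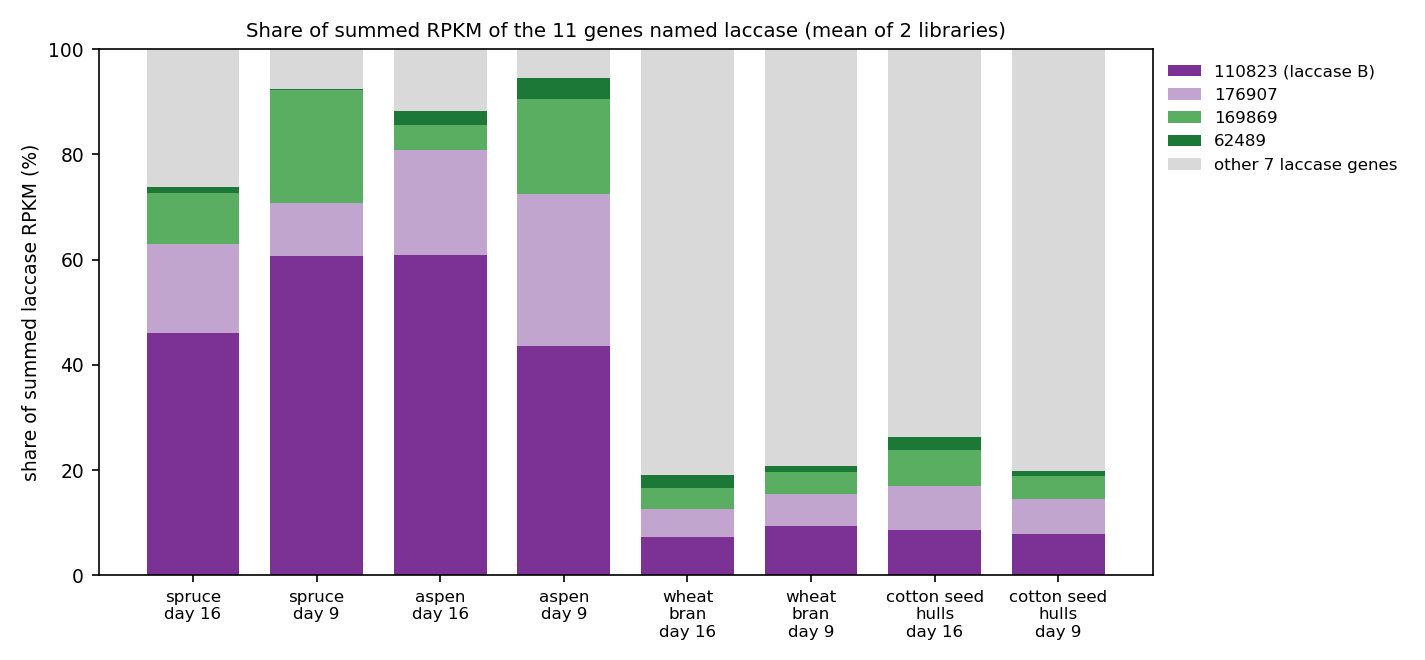
Stacked bars of the share (%, vertical axis) of each laccase in the summed RPKM of 11 laccase genes, by substrate and day, as means of 2 libraries. The 4 laccases fill 73.8% to 94.5% of the bars on wood and 19.2% to 26.4% on wheat bran and cotton seed hulls, where the other 7 genes make up the rest.

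Replicates of the day 9 wood groups differed in the same direction for 3 of the 4 laccases. The first library exceeded the second 2.24-fold on spruce and 1.55-fold on aspen for laccase B, 1.85-fold and 2.34-fold for 169869, and 3.86-fold and 2.60-fold for 62489. For 176907 the ratio was 0.962 on spruce and 0.824 on aspen. Without the first library of both groups, an alternative chosen after the data were seen, the log2 fold change of wood against non-woody substrates on day 9 was 7.18 for laccase B, 6.71 for 169869 and 4.08 for 62489. What set these libraries apart was not tested.

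Across the 16 libraries the levels of the 4 laccases followed each other to different degrees. On log2(RPKM + 1), Pearson's r was 0.98 between laccase B and 176907 (Spearman's rho 0.93), 0.96 between laccase B and 169869 (0.89), and 0.95 between 169869 and 176907 (0.91). With 62489 it was 0.88 for 176907, 0.81 for laccase B and 0.80 for 169869, with rho of 0.86, 0.86 and 0.91. These correlations describe 16 libraries in 8 pairs of replicates, share the scaling of each library and span the gap between wood and non-woody substrates. Many other genes span it too. Among 8195 tested genes, laccase B was by r gene 4 for 176907 and gene 84 for 169869. For laccase B, 62489 was gene 1789.

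The genes with the most similar pattern were looked up among 8195 tested genes with a group mean of at least 10 RPKM. Laccase B was followed most closely by a hypothetical protein, 19491 (r = 0.99, rho 0.95), whose mean reached 1006 RPKM on spruce on day 9 and was 3.33 RPKM at its lowest. Next came the hypothetical protein 71036 (r = 0.98, rho 0.84) and ATP-sulfurylase 132917 (r = 0.98, rho 0.97), an enzyme that activates sulfate for sulfur assimilation. The same ATP-sulfurylase was closest to 176907 (r = 0.98, rho 0.95), followed by a WLM-domain protein, 156440 (0.98, rho 0.91), and laccase 142773 (0.98, rho 0.87). Closest to 169869 were the hypothetical proteins 161457 (r = 0.99, rho 0.86) and 48167 (0.99, rho 0.83) and an FAD-binding protein, 139420 (0.99, rho 0.93). Laccase 62489 had weaker matches, the hypothetical protein 154065 (r = 0.93, rho 0.86), laccase 142773 (0.92, rho 0.81) and alcohol oxidase 160139 (0.91, rho 0.87). Over the 8 group means 2 of the 3 closest genes stayed for laccase B and 176907 and 1 of 3 for 169869 and 62489.

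The other multicopper oxidases comprise 10 genes, the remaining 7 laccases, a cupredoxin (126851), a multicopper oxidase (180464) and a Fet3 protein (82457). The list was taken by description, less the 4 laccases chosen for their level, and its calls are from the edgeR test with Benjamini-Hochberg adjustment over all 10584 genes. On day 16, 4 were higher on wood, where 29.7% of all genes tested were higher, and 3 were lower, where 30.0% were lower. On day 9, 4 were higher, against 37.4% of all genes, and 3 lower, against 34.1%. Their median log2 fold change was 0.14 on day 16 and 0.22 on day 9, against 0.03 for all genes on both days. The calls ran in both directions.

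Laccase 142773 had the pattern of 176907 at lower levels. It had 6.95 and 7.45 RPKM on spruce and 24.4 and 21.9 RPKM on aspen on day 16, against 2.21 to 3.52 RPKM in the 4 non-woody libraries (log2 fold change of wood 1.75 ± 0.15, edgeR adjusted p = 3.77e-08). On day 9 it had 23.7 and 24.9 RPKM on spruce and 91.1 and 103 RPKM on aspen, against 2.12 to 3.65 RPKM (3.74 ± 0.14, edgeR adjusted p = 1.88e-13). It was lower on spruce than on aspen on both days, with log2 fold changes of -1.77 ± 0.17 on day 16 and -2.21 ± 0.15 on day 9 (edgeR adjusted p = 2.42e-06 and 1.14e-07). Reads covered 46.6% to 66.3% of its model on day 9 wood, and the lowest coverage came from the library with 1358 reads. On the non-woody substrates 28 to 48 reads covered 49.7% to 76.0%. Part of the model thus had no reads at the high counts, and why was not tested.

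Laccase 173305 was also higher on wood, with 15.1 and 15.6 RPKM on spruce and 29.4 and 34.7 RPKM on aspen on day 16, against 5.13 to 11.6 RPKM on the non-woody substrates (log2 fold change 1.06 ± 0.28, edgeR adjusted p = 0.00809). On day 9 it had 118 and 57.0 RPKM on spruce and 94.8 and 52.5 RPKM on aspen, against 5.78 to 8.47 RPKM (3.24 ± 0.26, edgeR adjusted p = 1.87e-06). Its first day 9 wood libraries were the higher ones, as in laccase B, 169869 and 62489. Laccase 105748 was higher on wood by 0.70 ± 0.12 on day 16 and 0.90 ± 0.12 on day 9 (edgeR adjusted p = 0.000106 and 3.05e-06). Laccase 148140 was higher on wood on day 16 (0.48 ± 0.10, edgeR adjusted p = 0.000469). It had 21.1 to 26.7 RPKM on wood, 17.8 and 19.5 RPKM with wheat bran and 7.56 and 7.61 RPKM with cotton seed hulls. Wood thus stood further above cotton seed hulls than above wheat bran. Laccase 67925 was higher on wood on day 9 (0.63 ± 0.17, edgeR adjusted p = 0.00369). For 67925 the libraries overlapped, since spruce had 44.5 and 26.8 RPKM but aspen 14.5 and 10.3 RPKM, against 17.1 and 18.6 RPKM in the wheat bran libraries of day 9.

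Laccase 179829 ran the other way. Its means on day 16 were 5.97 RPKM on spruce, 11.3 on aspen, 14.6 with wheat bran and 14.3 with cotton seed hulls, and on day 9 they were 3.90, 3.56, 9.83 and 12.8 RPKM in the same order. It was lower on wood, with a log2 fold change of -1.30 ± 0.09 on day 16 and -1.86 ± 0.10 on day 9 (edgeR adjusted p = 1.63e-09 and 2.94e-11). It passed as higher on day 16 than on day 9 on all 4 substrates, by 0.42 ± 0.12 to 1.52 ± 0.14. The call on cotton seed hulls (0.42) was lost when any single library of that comparison was left out and with library size alone, and that on wheat bran (0.59) without the second library of day 9. The multicopper oxidase 180464 had the same direction, with -1.52 ± 0.10 on day 16 and -1.77 ± 0.12 on day 9 for wood (edgeR adjusted p = 5.69e-10 and 7.46e-10). Laccase 177001, called laccase 2, held 9.24 to 14.7 RPKM in all 16 libraries and was called lower on wood on day 16 (-0.36 ± 0.11, edgeR adjusted p = 0.00997), a call lost without the second cotton seed hulls library of day 16 and a direction that turned to 0.13 with library size alone.

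The Fet3 protein 82457 set the woods apart in opposite directions on the 2 days. It had 29.6 and 31.2 RPKM on spruce and 53.7 and 71.4 RPKM on aspen on day 16, and 31.6 and 35.1 RPKM on spruce and 9.88 and 8.96 RPKM on aspen on day 9. Spruce against aspen was -1.13 ± 0.11 on day 16 and 1.61 ± 0.12 on day 9 (edgeR adjusted p = 2.52e-06 and 3.76e-07). On aspen it was higher on day 16 than on day 9 (2.59 ± 0.12, edgeR adjusted p = 2.53e-11), whereas the 4 laccases were lower there on day 16. Against the non-woody substrates it was lower on wood on day 9 (-1.58 ± 0.08, edgeR adjusted p = 2.15e-11), though the libraries overlapped.

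**Figure D4:**
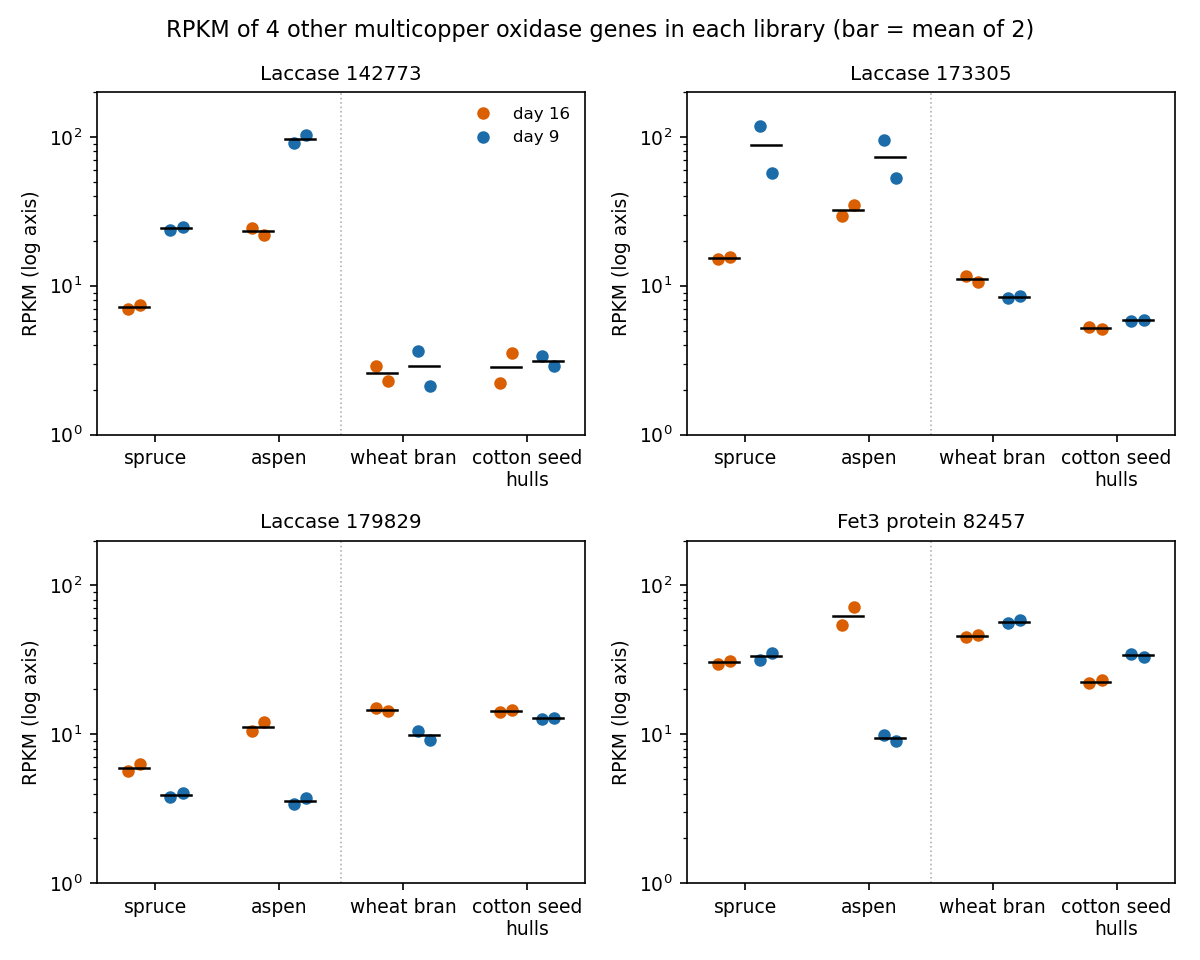
RPKM (log axis) of laccases 142773, 173305 and 179829 and of the Fet3 protein 82457 in each library; points are libraries, black bars the mean of 2, orange day 16 and blue day 9. Laccase 142773 is highest on aspen on day 9, and 173305 is highest and 179829 lowest on day 9 wood. Fet3 82457 has its lowest mean, 9.42 RPKM, on aspen on day 9.

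Over the other comparisons, 4 of the 10 passed between spruce and aspen on day 16, all lower on spruce (142773, 173305, 179829 and 82457), and 4 on day 9, of which 67925 and 82457 were higher on spruce and 105748 and 142773 lower. Between day 16 and day 9, 180464 and 179829 were higher on spruce and 142773, 173305 and 67925 lower. On aspen 82457, 180464, 179829, 126851 and 148140 were higher and 142773, 173305 and 105748 lower. On wheat bran 179829 and 180464 were higher, and on cotton seed hulls both were higher and 82457 lower. Laccases 142773 and 173305 were thus lower on day 16 on both woods. Between wheat bran and cotton seed hulls on day 16, 67925, 148140 and 82457 were higher and 179829 and 180464 lower. In the same comparison on day 9, 67925 and 82457 were higher and 179829 lower. Between the woods 23.5% of all genes tested passed on day 16 and 21.4% on day 9. Between the days, 5 of the 10 passed on spruce, 8 on aspen, 2 with wheat bran and 3 with cotton seed hulls. Over all genes these shares were 50.6%, 63.6%, 17.3% and 28.4%. Between the 2 non-woody substrates 31.4% of all genes passed on day 16 and 33.8% on day 9. Whether the list differed from all genes was not tested. Calls that were lost when single libraries were left out include 173305 between the woods on day 16 (any of its 4 libraries), 105748 between the woods on day 9 (either spruce library or the first aspen library) and on aspen between the days (the first day 9 library), and 82457 on cotton seed hulls (any of its 4 libraries). Likewise lost were 126851 on aspen (the first library of either day), 148140 on aspen (the second of day 9 or the first of day 16), 180464 on wheat bran (either of day 9 or the second of day 16), and, for the 2 non-woody substrates on day 16, 67925 (2 libraries) and 179829 (3 libraries).

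Genes for copper handling were counted because laccases carry copper. The list holds 6 genes, of which 1 was higher and 3 were lower on wood on day 16 and 4 were higher and 2 lower on day 9, with medians of -0.18 and 0.38 on the log2 scale. Over all genes the shares were 29.7% higher and 30.0% lower on day 16, and 37.4% and 34.1% on day 9. The list is small and all its genes are named, some after their values were seen. The copper chaperone 143293, described as taha, belongs to small proteins that carry copper inside the cell. It had 288 and 281 RPKM on spruce and 147 and 148 on aspen on day 16, and 85.7 to 134 RPKM on the non-woody substrates. On day 9 it had 1405 and 711 RPKM on spruce and 1184 and 659 on aspen, and 97.5 to 155 RPKM on the non-woody substrates (log2 fold change 2.67 ± 0.23, edgeR adjusted p = 3.24e-06). As for laccase B, its first day 9 library was the higher one on both woods. On day 16 wood against non-woody gave 0.46 ± 0.24 and missed the threshold (edgeR adjusted p = 0.126), but it passed with library size alone, with limma on RPKM, with DESeq2 and in a fit of the compared groups.

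The CTR copper uptake transporter 172557, which brings copper into the cell, ran against the laccases. It had 183 and 177 RPKM on spruce and 244 and 302 on aspen on day 16, and 310 to 410 RPKM on the non-woody substrates (log2 fold change -1.15 ± 0.08, edgeR adjusted p = 2.81e-09). On day 9 it had 107 and 82.0 RPKM on spruce and 97.9 and 84.9 on aspen, and 225 to 361 RPKM on the non-woody substrates (-1.91 ± 0.09, edgeR adjusted p = 2.65e-12). Across the 16 libraries its Pearson's r with the 4 laccases ran from -0.91 for 169869 to -0.62 for 62489, and that of the copper chaperone 143293 from 0.65 for 62489 to 0.93 for 169869. By r the chaperone was gene 287 of 8195 for 169869 and gene 1275 for laccase B, so many genes followed these laccases more closely.

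The other 4 copper genes had log2 fold changes of wood from -0.63 to 0.33 on day 16 and from -0.28 to 0.95 on day 9. The Ctr copper transporter 50825 was called lower on wood on day 16 (-0.21 ± 0.07) and higher on day 9 (0.33 ± 0.07), but the day 16 direction turned to 0.28 with library size alone, and the call was lost without the first spruce library or either cotton seed hulls library of day 16. Protein 60909, described as heavy metal translocatin, was called higher on wood on both days (0.33 ± 0.08 and 0.95 ± 0.08). On day 9 its spruce libraries, at 17.1 and 18.9 RPKM, overlapped those of wheat bran, at 17.99 and 16.3 RPKM. Aspen had 40.2 and 46.3 RPKM that day, and cotton seed hulls 8.81 and 7.78 RPKM. After TMM scaling its wood and non-woody libraries overlapped on both days. Protein 53339, of the same description, was lower on day 9 only (-0.28 ± 0.07), a call lost with library size alone. Peroxisomal copper amine oxidase 85414, a copper enzyme that oxidises amines, was lower on day 16 (-0.63 ± 0.06, a call lost with library size alone) and higher on day 9 (0.43 ± 0.06).

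**Figure D5:**
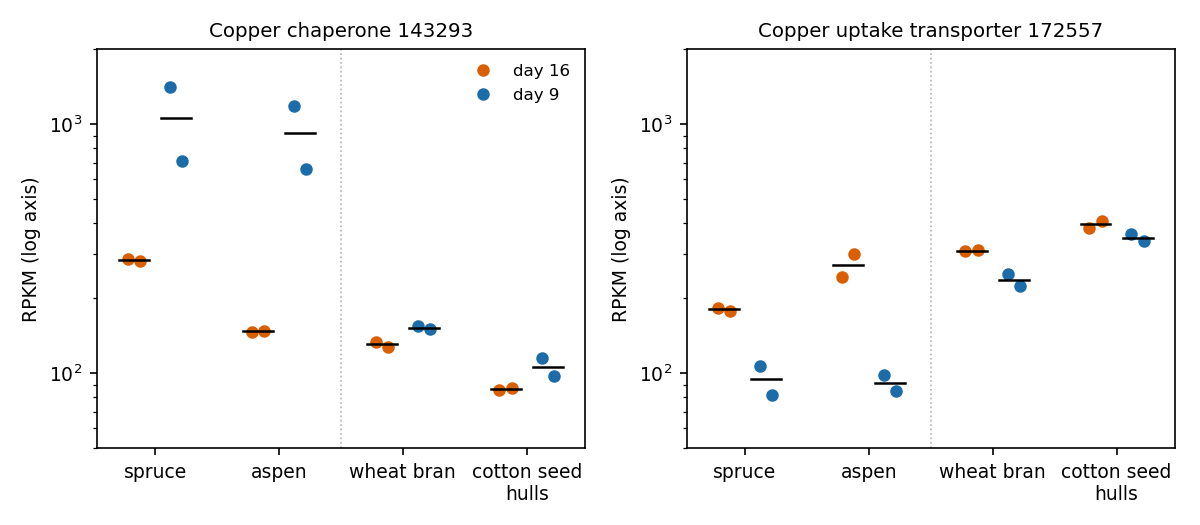
RPKM (log axis) of the copper chaperone 143293 and the copper uptake transporter 172557 in each library; points are libraries, black bars the mean of 2, orange day 16 and blue day 9. The chaperone reaches 659 to 1405 RPKM on day 9 wood, where the transporter has its lowest values, 82.0 to 107 RPKM.

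Laccases turn phenols into quinones and radicals, so quinone reductases and cellobiose dehydrogenase were counted beside them. Of 9 genes, 1 was higher and 7 were lower on wood on day 16, and 1 was higher and 5 were lower on day 9, with medians of -0.30 and -0.28. Lower calls made up 30.0% of all genes tested on day 16 and 34.1% on day 9, and higher calls 29.7% and 37.4%. Apart from quinone oxidoreductase 127330 and cellobiose dehydrogenase 153749, the members are described as NADH-quinone or NADH-ubiquinone oxidoreductases, the mitochondrial complex that feeds respiration, which is not what the name of the list says. The 2 most abundant, 61495 and 104890, had -0.50 ± 0.06 and -0.21 ± 0.06 on day 16. The value of 104890 turned to 0.27 with library size alone, and that of 61495 lost its call at -0.02. Quinone oxidoreductase 127330 was called lower on wood after TMM scaling, with -0.50 ± 0.06 on day 16 and -0.84 ± 0.06 on day 9 (edgeR adjusted p = 1.64e-06 and 9.98e-10). Its day 16 means were 75.8 RPKM on wood and 76.4 RPKM on the non-woody substrates on the scale of library size alone, and the libraries overlapped. Cellobiose dehydrogenase 153749, a secreted flavin and heme enzyme that oxidises cellobiose, was higher on wood on day 16 (0.73 ± 0.10) and lower on day 9 (-2.54 ± 0.10), with edgeR adjusted p = 9.67e-06 and 3.26e-12. Its libraries overlapped on day 16, at 16.9 to 96.0 RPKM on wood and 12.5 to 26.0 RPKM on the non-woody substrates.

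Class II peroxidases are the heme enzymes that act on lignin beside laccases. Of 11 genes, 3 were higher (169843, 173638 and 70857) and 1 was lower (141471) on wood on day 16, and 2 were higher (59877 and 147840) and 4 lower (141471, 50355, 150431 and 169526) on day 9, with medians of 0.21 and 0.09. These counts stand beside 29.7% higher and 30.0% lower of all genes tested on day 16, and 37.4% higher and 34.1% lower on day 9. Manganese peroxidase 59877 averaged 14.3 RPKM on wood and 8.93 RPKM on the non-woody substrates on day 16, and 344 RPKM on wood and 15.4 RPKM on the non-woody substrates on day 9. Its log2 fold change of wood was 0.19 ± 0.22 on day 16 (edgeR adjusted p = 0.484, passing with library size alone and with limma on RPKM) and 3.79 ± 0.19 on day 9 (edgeR adjusted p = 1.40e-08). Manganese peroxidase 141471 was lower on wood, with -2.17 ± 0.15 on day 16 and -4.76 ± 0.18 on day 9. Laccase and peroxidase genes were called in either direction, as were all genes tested at the shares given above.

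The genes on either side of each laccase were taken from the RefSeq annotation of assembly Dichomitus squalens v1.0, for their order only, since the build of the deposited files is not given in the sources used here. None of the neighbours had a laccase description. Their calls stand beside 29.7% higher and 30.0% lower on wood of all genes tested on day 16, and 37.4% and 34.1% on day 9. Hypothetical protein 15894, beside 169869, was higher on wood by 0.73 ± 0.22 on day 16 and 2.51 ± 0.23 on day 9 (edgeR adjusted p = 0.00872 and 4.07e-08), and its day 16 call was lost without the second wheat bran library of day 16. After TMM scaling the day 16 libraries of 15894 overlapped, at 10.3 CPM per kilobase in the lowest wood library and 13.9 in the highest non-woody library. On the other side of 169869, 146974 was higher on wood on day 9 (1.06 ± 0.09). Beside 176907, past a tRNA gene, hypothetical protein 165074 was higher on both days (1.35 ± 0.15 on day 16 and 1.19 ± 0.20 on day 9), with 231 and 321 RPKM on aspen on day 16 against 11.9 and 8.23 on day 9, the order of days opposite to that of 176907. On spruce it had 35.6 and 34.5 RPKM on day 16, below the 48.0 and 54.3 RPKM in the wheat bran libraries, so the high day 16 libraries were those of aspen.

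The neighbours of laccase B and 62489 ran in both directions, as did all genes tested. Hypothetical protein 157016, before laccase B, was lower on wood, with -0.70 ± 0.07 on day 16 and -1.16 ± 0.07 on day 9, and 67855, after it, missed the threshold on both days (0.40 ± 0.21 and -0.01 ± 0.17), though it passed on day 16 with library size alone. The Phox-like protein 62774, after 62489, was lower (-0.49 ± 0.06 and -1.52 ± 0.07), its day 16 call lost with library size alone. Before it, 107340 passed on day 9 only (0.72 ± 0.09), and 176908, after 176907, on day 16 only (-0.28 ± 0.07, turning to 0.21 with library size alone).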

How the data were processed

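Unique read counts, RPKM and the percent of each gene model covered by reads were deposited by the authors for each library, per the file headers. The counts are whole numbers, and RPKM recomputed from counts, model length and library total equalled the deposited RPKM. RNA was extracted with CTAB and mRNA libraries were made by Illumina protocols, per the labels' protocols. The sources used here give no aligner, counting tool, build or strand setting, so reads of overlapping genes may be mixed. Of 11410 genes, 11371 matched a RefSeq locus tag.

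Counts were fitted with edgeR 4.0.16 in R 4.3.3 (TMM, filterByExpr with minimum count 10, robust quasi-likelihood F-test, 8 group means, 8 residual degrees of freedom). The filter left 10584 genes and removed 826, and adjusted p values are Benjamini-Hochberg values over them, with threshold 0.05. Standard errors were derived from the F statistic. The fit was tested on simulated counts. DESeq2 1.42.0 and limma 3.58.1 served as alternatives, with other scalings, no filter, a replicate block and each library left out. The members and gene lists were chosen with earlier results of these data known. Named genes were all 4 laccases, other multicopper oxidases with a group mean of at least 10 RPKM, the 3 most alike genes and the neighbours of each laccase, and the 2 most abundant genes of each list, and others are named where a count was 5 or fewer.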

Additional observations from a re-analysis of the deposited data

Results flagged for a closer look

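Under the same comparison, some genes had both libraries higher in 1 condition and both lower in another, with no overlap between libraries by RPKM or by TMM-scaled counts. The pattern was looked for in 13 genes and 9 pairs of conditions. The share of all genes with this pattern was not counted, so how common it is cannot be judged here. With 2 libraries a group this pattern can occur for values within their SE, and the differences between the conditions were not tested.

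For day 16 against day 9 this held for the 4 laccases. Laccase B (110823) had a log2 fold change of -3.43 ± 0.35 (SE) for spruce and -1.56 ± 0.33 for aspen, against -0.35 ± 0.43 for wheat bran and 0.33 ± 0.47 for cotton seed hulls, both within their SE. For 169869 it was -4.11 ± 0.42 on spruce and -4.08 ± 0.41 on aspen, against 0.83 ± 0.63 on cotton seed hulls. For 176907 it was -2.10 ± 0.15 for spruce and -2.53 ± 0.15 for aspen, against -0.17 ± 0.19 for wheat bran and 0.53 ± 0.19 for cotton seed hulls. For 62489 it was -2.66 ± 0.60 on aspen, against 1.21 ± 1.27 for wheat bran and 1.57 ± 1.54 for cotton seed hulls, where counts were 5 to 42 reads.

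Among the other multicopper oxidases, laccase 173305 had -2.52 ± 0.34 for spruce and -1.33 ± 0.32 for aspen, both called by edgeR, and 0.42 ± 0.40 for wheat bran, not called. Laccase 148140 had 0.40 ± 0.13 on aspen, a call lost without either of 2 libraries, and -0.39 ± 0.15 on cotton seed hulls, not called. Fet3 82457 had 2.59 ± 0.12 on aspen, which was called, and -0.15 ± 0.11 for spruce and -0.32 ± 0.11 for wheat bran, which were not. Its -0.34 ± 0.11 for cotton seed hulls was called, but not without any 1 of its 4 libraries. Spruce against aspen was -1.13 ± 0.11 on day 16 and 1.61 ± 0.12 on day 9 for Fet3 82457, both called. For laccase 67925 it was -0.69 ± 0.24 on day 16, not called, and 1.31 ± 0.22 on day 9, called.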

How the results depend on the processing

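With 2 libraries a group the precision is limited, above all for 62489, whose counts on the non-woody substrates were 5 to 42 reads. No alternative reversed a wood against non-woody value of the 4 laccases. On day 16, library size alone, limma on log2(RPKM + 1) and limma on log2(RPKM + 0.1) gave log2 fold changes of 5.67, 5.47 and 5.64 for 110823, 3.27, 3.03 and 3.26 for 169869, and 4.38, 4.15 and 4.34 for 176907. On day 9, 176907 had 6.66 with library size alone and 6.63 with limma on log2(RPKM + 0.1). Without the first library of spruce and of aspen on day 9, an alternative chosen after seeing the data, the day 9 values were 4.08 for 62489, 7.18 for 110823 and 6.71 for 169869.

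Between spruce and aspen on day 9, 2266 genes were called, against 3511 with library size alone, 376 with only the compared groups and 1287 to 2400 with single libraries left out. Leaving out single libraries gave 1306 to 2823 genes between spruce and aspen on day 16 (2483 with all), 2239 to 3859 between wheat bran and cotton seed hulls on day 9 (3574), 2108 to 3542 on day 16 (3320), 878 to 2118 between the days with wheat bran (1830) and 1798 to 3261 with cotton seed hulls (3003). Between wheat bran and cotton seed hulls on day 16, library size alone called 6474 genes, limma 6541 with a pseudocount of 1 and 6624 with 0.1. Only the compared groups called 3191 between the days with wheat bran.

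The same 3 settings (library size alone, limma with a pseudocount of 1, limma with 0.1) reversed the sign on wood on day 16 for 104890 (0.27, 0.27, 0.27), 107340 (0.47, 0.45, 0.47), 146974 (0.30, 0.30, 0.30), 176908 (0.21, 0.20, 0.20), 177001 (0.13, 0.12, 0.13), 50825 (0.28, 0.27, 0.28), 53339 (0.33, 0.32, 0.33) and 82457 (0.45, 0.43, 0.44), and for 179829 between wheat bran and cotton seed hulls on day 16 (0.032, 0.030, 0.031). None of these is centred on the median gene, which moved as given above. The replicate block called 7597 genes on wood on day 9 and 6394 on day 16, and gave 7.64 for 110823, 7.25 for 169869, 6.38 for 176907 and 5.05 for 62489 on day 9. It changed 1 of 154 calls of other genes, that of 82457 between the days with wheat bran (adjusted p = 0.0374, edgeR). Over 28 pairs of groups the correlations of same-numbered libraries ran from -0.058 to 0.358, with a median of 0.016. Only spruce and aspen on day 9, which deviated together, were over 0.1, so the numbers were not taken to pair the samples. The replicate block is fitted over all 16 libraries at once, so it cannot take up a deviation of these groups alone. The SE and adjusted p values of wood on day 9 do not allow for this shared deviation. Of 2203 values of other named genes under the alternatives, 2041 kept their call, 71 lost it, 64 gained it and 27 reversed, where genes called in neither fit were judged by the side of the threshold only.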
